A study of Mus musculus with 2 samples.

Results

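Neurexins, neuroligins and leucine-rich repeat transmembrane neuronal proteins (LRRTMs) join the presynaptic and postsynaptic membranes. The genes described are Nrxn2 and Nrxn3 of the neurexins, Nlgn1, Nlgn2 and Nlgn3 of the neuroligins, and Lrrtm1, Lrrtm2, Lrrtm3 and Lrrtm4. They were chosen by name and family, and all 9 were found among the 43346 genes of the tables. No measured value set the choice, though earlier results of these data were known when it was made. RNA was measured in pyramidal neurons of layer 5, a deep layer of the mouse cortex whose excitatory cells send axons to distant targets. There were 2 libraries, and each came from 50 cells that were cut out by laser capture and pooled. The mice were wild-type, male and 8 months old, RNA above 200 nt was used, and spike-in RNAs of known sequence were added. The labels give the strain as B6NCrl in one field and as C57Bl5 and C57Bl6 in others, carry the antibody tag Control, and name no treatment. There was 1 group and no second condition. The libraries are labelled biological replicates 1 and 2 but carry the same donor identifier, so the spread between them may be technical. An exact two-sided test of 2 libraries has a smallest possible p of 0.5, so none was run, and values are given per library and as mean ± SD (n = 2).

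Neurexins sit on the presynaptic side and act as receptors for a large set of postsynaptic and secreted ligands, among which the neuroligins and the LRRTMs are the best known. Each neurexin gene makes a long alpha form and a short beta form from separate promoters, and both are varied by alternative exons. One of these, at the site known as splice site 4, decides which ligands bind: LRRTM1 and LRRTM2 bind neurexins that lack it, and cerebellins bind neurexins that carry it. Neuroligin 1 is known mainly from excitatory synapses, neuroligin 2 from inhibitory ones and neuroligin 3 from both kinds. LRRTMs are organisers of excitatory synapses, and LRRTM3 and LRRTM4 also bind heparan sulfate chains.

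The libraries held 24171434 and 27946180 estimated reads, of which spike-ins took 4.28% and 5.32%. All 10 pyramidal neuron markers reached a TPM of 1 (reads per transcript length, scaled to a fixed sum per library) in each library, with Camk2a at 83.4 and 84.4 TPM and Slc17a7 at 31.9 and 49.3 TPM. Markers of other cells were present in both pools. The summed level of 10 interneuron markers was 3997 TPM in replicate 1 and 1820 in replicate 2, beside 2853 and 5500 TPM for the 10 pyramidal markers. In replicate 1 the interneuron sum was thus the higher. Gad1 (143 and 94.8 TPM) and Pvalb (508 and 338 TPM) stood above Slc17a7 in each library, and Gad2 (31.7 and 11.05 TPM) and Slc32a1 (3.63 and 2.66 TPM) below it. The sum of 8 microglial markers was 131 and 50.7 TPM. None of the 56 markers was at 0 in either library. The values below therefore belong to pools in which RNA of other cells was present, and fewer cells of a type cannot be told apart from less RNA per cell.

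All 9 genes were measured well above the median protein-coding gene, which had 2.02 TPM in replicate 1 and 1.84 in replicate 2. By the deposited gene level the neurexin Nrxn3 was highest at 48.9 ± 12.4 TPM (SD, n = 2), above 90.6% and 87.2% of coding genes. Nlgn2 was lowest at 9.73 ± 3.53 TPM, above 65.0% and 72.6% of coding genes. The order by mean was Nrxn3, Nrxn2, Lrrtm3, Nlgn1, Lrrtm4, Nlgn3, Lrrtm2, Lrrtm1 and Nlgn2. Among the neighbours in this order the ranges of the libraries did not overlap for Nrxn2 over Lrrtm3 and for Lrrtm1 over Nlgn2, and they overlapped for the other 6 pairs. The sum over all 9 genes was 224.03 TPM in replicate 1 and 224.39 in replicate 2. By family, summed levels were 98.3 and 76.2 TPM for the neurexins, 42.1 and 65.8 TPM for the neuroligins and 83.7 and 82.4 TPM for the LRRTMs.

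**Figure D1:**
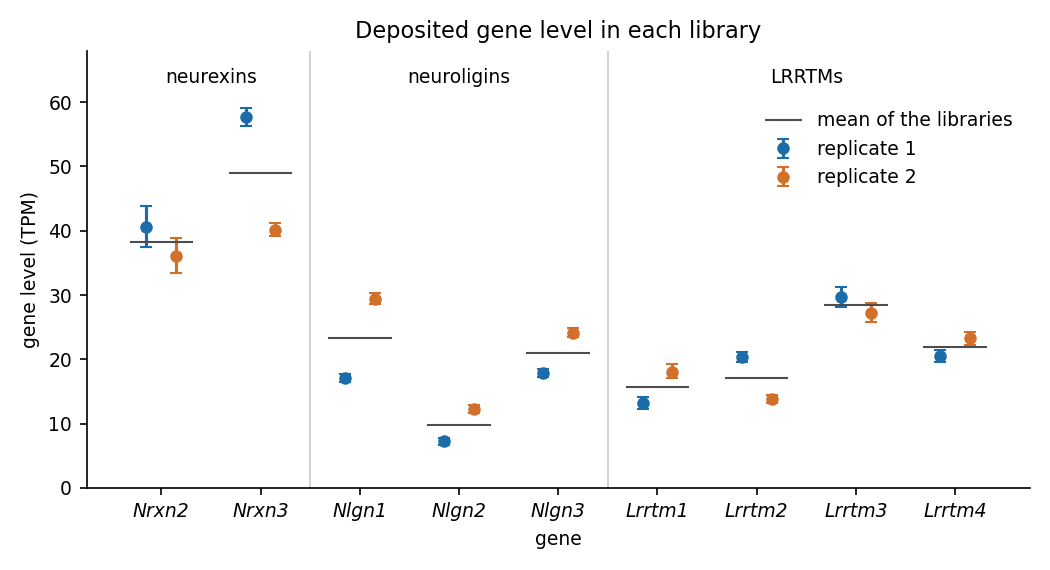
Deposited gene level in TPM (vertical axis, linear) of the 9 genes in replicate 1 (blue) and replicate 2 (orange), with 95% exact Poisson intervals of the read count as bars and the mean as a grey line. Nrxn3 and Lrrtm2 were higher in replicate 1, and all 3 neuroligins, Lrrtm1 and Lrrtm4 in replicate 2, with counting intervals that did not overlap.

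Nrxn3 lies on chromosome 12 (GRCm38, 88722876 to 90334935, plus strand), a span of 1612060 bases. Its level was 57.7 TPM in replicate 1 and 40.2 in replicate 2, from 6664 and 5594 estimated reads, the most reads of any of the 9 genes in each library. Transcript values were used for replicate 1, where 12 of 13 annotated Nrxn3 transcripts had a TPM above 0. The alpha transcript Nrxn3-205, with 20 exons, 7922 nt and a coding sequence of 4713 nt, held 56.5% of the gene's TPM and 5105 of its reads (posterior SD of the assignment, 42.7 reads). The beta transcripts Nrxn3-202 and Nrxn3-203 held 11.1% and 3.27%. Among the transcripts with an annotated coding sequence the beta forms made up 18.7% of TPM and the alpha forms 81.3%. As a share of 6082 coding reads the shorter beta forms were 9.13% (95% exact binomial interval 8.41% to 9.88%). This interval and those of the other read shares cover counting error and not the division of reads among transcripts. Transcripts annotated as retained introns held 17.3% of the gene's TPM, those annotated for nonsense-mediated decay 5.68% and processed transcripts without a coding sequence 5.73%.

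In replicate 1 the alternative exon of splice site 4 was in the annotated transcripts that held most coding Nrxn3 TPM. The 90-nt exon, which adds 30 codons and keeps the reading frame, was in 5 transcripts with a summed 40.8 TPM and absent from 2 with 3.64 TPM. Transcripts annotated with the exon thus held 91.8% of TPM, or 95.2% of reads (95% exact binomial interval 94.7% to 95.8%). Of the forms without it, the beta transcript Nrxn3-203 contributed 1.89 TPM and Nrxn3-213, annotated for decay, 1.75 TPM. The alpha transcripts annotated as protein-coding, Nrxn3-201, Nrxn3-205 and Nrxn3-210, all carry the exon. Alpha RNA that skips it thus had no protein-coding transcript to be assigned to, and the share depends on the annotation. The exon is shown because this choice sets which postsynaptic partners a neurexin can bind. It lies at chr12:90199147-90199236 on the plus strand, was read from the GENCODE M21 transcripts of GRCm38, and is printed in lower case throughout, 5′ to 3′.
Nrxn3 90-nt exon: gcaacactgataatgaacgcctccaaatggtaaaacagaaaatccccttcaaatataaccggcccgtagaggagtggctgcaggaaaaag
Of its 90 bases 45.6% are G or C.

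The shares of other Nrxn3 exons in replicate 1 followed whether the leading transcript Nrxn3-205 carries them. Of the alpha forms, a 27-nt exon at position 89354453 was carried by transcripts with 34.6 TPM and absent from 1.53 TPM. Another 27-nt exon at position 89517906 was absent from transcripts with 34.2 TPM, among them Nrxn3-205, and carried by 1.97 TPM. The small 18-nt and 30-nt exons at positions 88832553 and 88850279 were each in 34.2 TPM and missing from 1.75 TPM. Among the transcripts with a coding sequence that span these exons, only Nrxn3-208 lacks the first 27-nt exon. Only Nrxn3-213 lacks the 18-nt and 30-nt exons, and both transcripts are annotated for decay. RNA that skips these exons thus had no protein-coding transcript to be assigned to, and their use was not measured apart from the annotation. Each such share depends on how reads were divided among annotated transcripts and was available for 1 library.

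Nrxn2 lies on chromosome 19 (6418731 to 6544169, plus strand). Its deposited level was the second highest, 40.5 and 36.05 TPM, a mean of 38.3 ± 3.17 TPM (SD, n = 2), and the counting intervals of the libraries overlapped. Its read count was nevertheless the lowest of the 9 genes in each library, 622 and 708 estimated reads. In replicate 1 most of the level belonged to a short RNA with no annotated coding sequence. Nrxn2-213, a processed transcript of 576 nt and 3 exons (6517205 to 6532296), held 91.8% of the gene's TPM from 355 reads (posterior SD, 5.80 reads). Protein-coding Nrxn2 transcripts together held 7.92% of TPM, or 3.21 TPM, from 261 reads. Of these the beta transcript Nrxn2-202 stood at 2.34 TPM and the alpha transcript Nrxn2-201 at 0.66 TPM from 78.8 reads with a posterior SD of 22.7 reads. By coding TPM alone Nrxn2 moved from the second place to the ninth in that library.

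The short transcript is not unique in sequence. All 576 of its bases lie in exons of Nrxn2-201, and its whole sequence occurs as 1 run in that alpha transcript, so no read inside it can be assigned to it by sequence alone. The gene length in the deposited tables, a mean over transcripts weighted by TPM, was 866 nt in replicate 1 and 976 nt in replicate 2, where the shortest annotated transcript has 547 nt and the shortest of at least 1000 nt has 1933 nt. From these lengths at least 77.0% of the Nrxn2 TPM in replicate 1 and at least 69.0% in replicate 2 lay on transcripts shorter than 1000 nt. Replicate 2, without transcript values here, thus had its Nrxn2 level set mostly by short transcripts as well.

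The length given to a gene decided where Nrxn2 stood. With all reads of each gene placed on its longest protein-coding transcript, a choice made after the values were seen, Nrxn2 had 4.73 TPM in replicate 1 and 4.81 in replicate 2 (4.77 ± 0.06, SD, n = 2), the lowest of the 9 genes. On the same scale Nrxn3 remained first at 42.6 and 31.9 TPM. Lrrtm3 went from 28.4 ± 1.75 to 16.6 ± 1.83 TPM, and its place from the third to the sixth. Every gene but Nrxn2 and Lrrtm3 moved by less than its spread between the libraries, with Nlgn1 going from 23.2 ± 8.77 to 15.8 ± 6.27 TPM, Lrrtm4 second at 21.01 ± 1.78 TPM and Nlgn3 next at 19.8 ± 4.24 TPM. This placement gives the lower end for genes whose reads truly come from short transcripts, and which of the lengths is right was not tested.

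**Figure D2:**
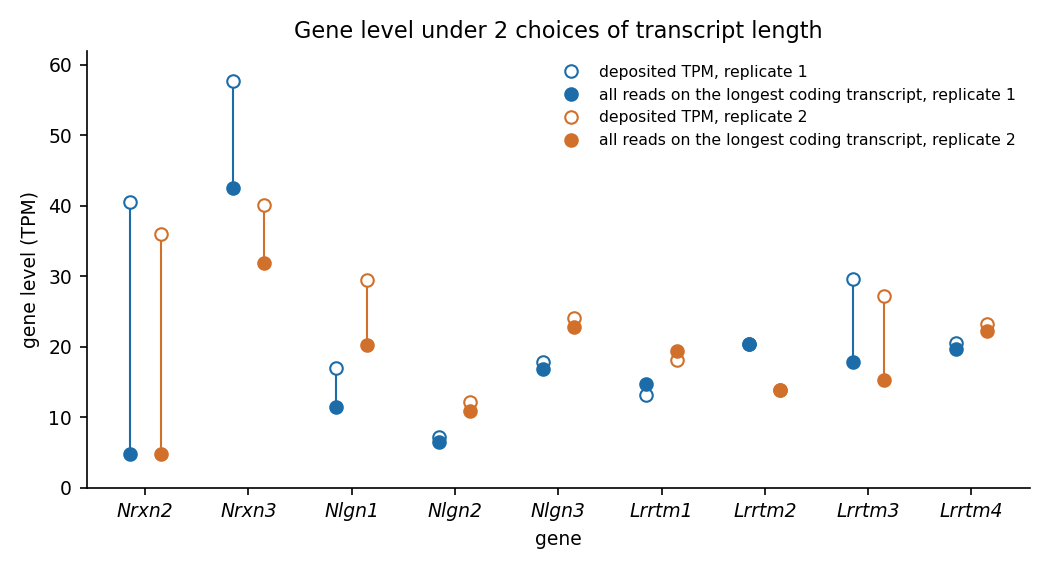
Gene level in TPM under the deposited gene length (open circles) and with all reads on the longest protein-coding transcript (filled circles), for replicate 1 (blue) and replicate 2 (orange). Nrxn2 dropped from 40.5 and 36.05 to 4.73 and 4.81 TPM, and Lrrtm2, which has 1 transcript, did not move.

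Within a library Nrxn3 exceeded Nrxn2 by 0.50 in replicate 1 and 0.15 in replicate 2 on the scale of log2(TPM + 1), a difference of 0.33 ± 0.25 (SD, n = 2). The difference was larger than its spread, and its size depended on the length given to Nrxn2. With all reads on the longest coding transcripts it was 2.71 ± 0.30.

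Among the neuroligins Nlgn2 lay below Nlgn1 and Nlgn3 in each library. Nlgn1 (chromosome 3, 25426215 to 26332460, minus strand) stood at 17.0 and 29.4 TPM, from 2671 and 5313 reads. Nlgn3 (chromosome X, 101299168 to 101325963, plus strand) stood at 17.9 and 24.1 TPM, from 2836 and 4307 reads. Nlgn2 (chromosome 11, 69823122 to 69837784, minus strand) stood at 7.23 and 12.2 TPM, from 709 and 1342 reads. Each neuroligin was higher in replicate 2 and the counting intervals of the libraries did not overlap. Nlgn1 exceeded Nlgn2 by 1.13 and 1.20 on the log2(TPM + 1) scale, 1.17 ± 0.05, which was beyond the spread, and by 0.78 ± 0.07 with all reads on the longest coding transcripts. Nlgn3 minus Nlgn1 was 0.06 in replicate 1 and -0.28 in replicate 2, a difference of -0.11 ± 0.24 that lay within the spread and changed sign. With the longest coding transcripts it was 0.52 in replicate 1 and 0.16 in replicate 2, 0.34 ± 0.25, larger than the spread. Nlgn1 and Nlgn3 thus had no common order in the libraries by the deposited length, and Nlgn3 was higher in each with the longest coding transcripts.

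Coding Nlgn1 RNA in replicate 1 was assigned to a form with both alternative inserts and to forms with neither. Nlgn1-205, of 11807 nt with a coding sequence of 2529 nt, held 50.7% of TPM from 2024 reads. Nlgn1-202, of 4272 nt with a coding sequence of 2442 nt, held 32.6% from 464 reads (posterior SD, 42.0 reads). A retained-intron transcript, Nlgn1-204, held 16.2%. The coding forms differ by a 60-nt exon at the so-called splice site A and by a 27-nt exon end at splice site B. The insert at splice site B is known to hinder binding of alpha neurexins. Both inserts are in Nlgn1-201 and Nlgn1-205 and absent from Nlgn1-202 and Nlgn1-203, so in these tables they cannot be told apart. Forms with them made up 60.5% of coding TPM and 81.2% of 2493 coding reads (95% exact binomial interval of the read share, 79.6% to 82.7%). Nlgn1-205 also extends past Nlgn1-202 at both ends (25426215 to 26332460 against 25431811 to 26133734). Nlgn1-201, which has both inserts and the ends of Nlgn1-202, had 0 reads (posterior SD, 27.8 reads). These shares therefore also depend on reads in the ends, and use of the inserts alone was not measured.

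Nlgn3 and Nlgn2 were more uniform. All Nlgn3 TPM in replicate 1 lay on transcripts that carry the second of 2 alternative 60-nt exons at splice site A, with 17.9 TPM with it and 0 TPM without. The only coding transcript that skips it, Nlgn3-203, is a short model of 1852 nt, so the annotation left little room for another outcome. The first 60-nt exon was in Nlgn3-206 alone, at 1.01 TPM, 5.66% of TPM, where the posterior SD of its 171 reads was 68.2 reads. The leading transcript Nlgn3-202 held 93.5% of TPM from 2641 reads. Its annotated second exon is 144 nt long, 503 nt shorter than that of Nlgn3-201 and Nlgn3-206, and its coding sequence of 2133 nt starts 342 nt later, at position 101302326 in place of 101301984. It thus lacks 114 codons at the start of the annotated protein, while Nlgn3-201, the full-length form without the first insert, held 0.81% (24.3 reads with a posterior SD of 75.6 reads). All Nlgn2 TPM was assigned to Nlgn2-201 (5003 nt, coding sequence 2508 nt), which carries a 51-nt alternative exon. The deposited length of Nlgn2 was 5003 nt in replicate 2 too, so the same transcript took the gene's reads in both libraries.

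The neuroligin inserts are shown because they are the sites at which these genes are known to vary their neurexin binding. Nlgn1 has them on the minus strand at chr3:25920178-25920237 and chr3:25439865-25439891, and Nlgn3 on the plus strand at chrX:101303072-101303131 and chrX:101307075-101307134, all on GRCm38 from GENCODE M21. Capitals mark the bases that the Nlgn1 60-nt exon and the second Nlgn3 exon share in an ungapped comparison, and the other inserts are in lower case throughout.
Nlgn1 60-nt exon: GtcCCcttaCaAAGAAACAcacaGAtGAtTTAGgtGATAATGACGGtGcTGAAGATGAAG
Nlgn3 second 60-nt exon: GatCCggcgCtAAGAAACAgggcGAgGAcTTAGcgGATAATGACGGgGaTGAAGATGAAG
Nlgn3 first 60-nt exon: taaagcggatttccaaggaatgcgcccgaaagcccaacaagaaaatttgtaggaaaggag
Nlgn1 27-nt exon end: gtaaccgttggagcaattcaaccaaag
The Nlgn1 exon shared 43 of 60 bases (71.7%) with the second Nlgn3 exon and 16 of 60 (26.7%) with the first. The Nlgn1 exon was thus closer in sequence to the second Nlgn3 exon than to the first, which is not a result on exon use. All 4 inserts have lengths that are multiples of 3.

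**Figure D3:**
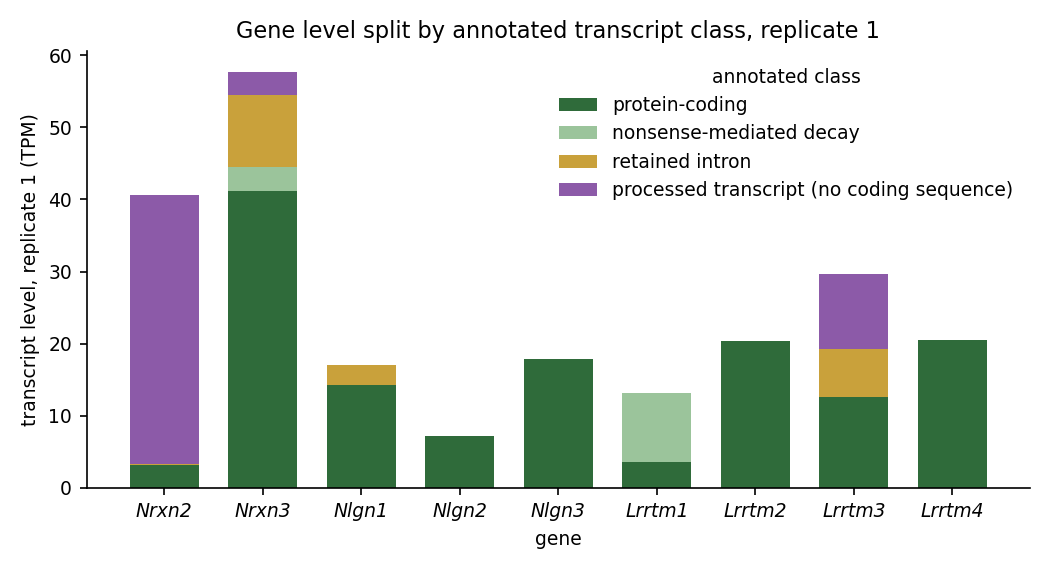
Transcript level in TPM of replicate 1 (vertical axis, linear from 0), stacked by the annotated class of the transcripts, for each of the 9 genes. The processed transcript class made up 91.8% of the Nrxn2 column and 35.2% of the Lrrtm3 column, and Nlgn2, Nlgn3, Lrrtm2 and Lrrtm4 were protein-coding throughout.

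The 4 LRRTM genes had the most even summed level of the families, 83.0 ± 0.91 TPM (SD, n = 2). Lrrtm3 (chromosome 10, 63928472 to 64090277, minus strand) was highest by the deposited length, at 29.7 and 27.2 TPM, and Lrrtm4 (chromosome 6, 80018877 to 80810143, plus strand) next at 20.5 and 23.3 TPM. Lrrtm2 (chromosome 18, 35209003 to 35215024, minus strand) stood at 20.3 and 13.8 TPM, and Lrrtm1 (chromosome 6, 77242689 to 77257791, plus strand) at 13.1 and 18.1 TPM. Lrrtm2 was higher in replicate 1 and Lrrtm1 in replicate 2, so that their order changed between the libraries. Lrrtm3 exceeded Lrrtm1 by 1.12 and 0.56 on the log2(TPM + 1) scale, 0.84 ± 0.39. That excess and the first place of Lrrtm3 both depended on the length. With all reads on the longest coding transcripts Lrrtm3 stood at 16.6 ± 1.83 TPM, the lowest mean of the 4, beside 17.1 ± 3.29 for Lrrtm1. Lrrtm3 minus Lrrtm1 was then 0.26 in replicate 1 and -0.33 in replicate 2, -0.03 ± 0.42, within the spread. By the deposited length the sum of the 4 LRRTMs exceeded that of the 3 neuroligins by 0.97 in replicate 1 and 0.32 in replicate 2. This difference of 0.65 ± 0.46 was larger than the spread, but the sums cover unlike numbers of genes. The median per gene was 20.4 and 20.7 TPM for the LRRTMs and 17.0 and 24.1 TPM for the neuroligins, so the order of the medians changed between the libraries.

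Most Lrrtm3 TPM in replicate 1 was noncoding by annotation. The coding transcript Lrrtm3-201, of 3896 nt, held 42.2% of TPM but 952 of 1357 reads. A processed transcript of 545 nt, Lrrtm3-202, held 35.2% of TPM from 93.1 reads, and a retained-intron transcript, Lrrtm3-204, held 22.6% from 312 reads. The deposited gene lengths of 2385 and 2231 nt, both below that of the coding transcript, show that shorter transcripts carried weight in each library. The leading Lrrtm1 transcript was labelled for decay but kept the coding sequence. Lrrtm1-201, annotated for nonsense-mediated decay, held 72.5% of TPM, and it contains the same coding interval of 1566 nt (77243562 to 77245127) as the coding transcripts Lrrtm1-202 and Lrrtm1-203. All Lrrtm1 TPM therefore lay on RNA with the full coding interval. Lrrtm4 was led by the 2-exon Lrrtm4-206 at 89.4%, whereas forms that end in an exon far downstream, which changes the end of the protein, made up 9.04% of the TPM of the coding forms compared and 6.30% of their reads (95% exact binomial interval of the read share, 5.21% to 7.57%). Lrrtm2 has a single annotated transcript in the table.

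Several of these genes overlap others, which matters because the use of strand in the counting is not given in the sources used here. Lrrtm1, Lrrtm2 and Lrrtm3 each lie inside a gene of an alpha-catenin, an adaptor between cadherins and actin, on the opposite strand. Ctnna2, the host of Lrrtm1, stood at 31.1 and 29.5 TPM and shares no exon base with it. Ctnna1, the host of Lrrtm2, stood at 8.34 and 7.38 TPM and shares 95 of the 6022 exon bases of Lrrtm2. Ctnna3, the host of Lrrtm3, stood at 2.29 and 0.47 TPM and shares none. The Lrrtm2 and Lrrtm3 levels were above those of their hosts in each library, and the Lrrtm1 level was below.

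Overlaps of the other genes were small or had low counts. The antisense gene Gm14964 shares 207 exon bases with Nrxn2 and had 28.2 and 21.8 reads, and Slc22a12, which shares 682, had none. Gm37980 shares 439 bases with Nrxn3 and had 51.0 and 8.53 reads. A830092H15Rik shares 1229 bases with Nlgn1 and had 16.1 and 25.2 reads. The pseudogene Gm6197 lies within Nlgn1 without shared exon bases and stood at 9.58 and 16.8 TPM, whereas Gm37573 stood at 1.92 and 0.64 TPM and Gm24250 had 1.30 reads in replicate 2 and none in replicate 1. Gm21986 shares 3823 bases with Nlgn3 on the same strand and had 35.5 and 20.8 reads against 2836 and 4307 for Nlgn3. Gm4409, which shares 1543 bases with Lrrtm4, and the microRNA genes Gm27313 and Gm23989 inside Nrxn3 had no reads. Posterior SDs of the 9 gene counts were between 0 and 4.57 reads, so the reads of these genes were rarely divided with other genes.

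Between the libraries none of the 9 genes differed at least 2-fold, and 4.46% of 9190 genes at a mean CPM of at least 10 did. CPM is a read count scaled to a common library size, not divided by length, and ratios are log2 of CPM + 1 in replicate 1 over replicate 2. All 9 genes passed that minimum. The median ratio of the 9 genes was -0.17, and that of all genes tested was -0.03. At a limit of 1.5-fold, set after the values were seen, 2 of the 9 differed, both higher in replicate 2, against 16.9% of all genes. These were Nlgn1 and Nlgn2. Nlgn1 was 1.78 times higher in replicate 2 (95% exact counting interval 1.70 to 1.86), a log2 ratio of -0.83. Nlgn2 was 1.69 times higher (1.54 to 1.86), a ratio of -0.74. Of all genes tested 7.39% had a ratio at least as far from 0 as Nlgn1. The intervals cover counting error only, since reads without molecular identifiers are not independent molecules, and 1 library on each side gives no replicate check.

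The remaining ratios were smaller. Nlgn3 had a log2 ratio of -0.44, Lrrtm1 of -0.39 and Lrrtm4 of -0.17, all toward replicate 2. Lrrtm2 had 0.55, Nrxn3 0.41 and Lrrtm3 0.22, all toward replicate 1. Nrxn2 had -0.03 on CPM and 0.17 on TPM, so its direction depended on the scale. With libraries scaled to their spike-in totals, the median ratio of all genes became 0.33. On that scale Nlgn1 at -0.47, Nlgn2 at -0.39, Nlgn3 at -0.08 and Lrrtm1 at -0.04 still lay below 0, Lrrtm4 turned to 0.19 and Nrxn2 to 0.32. Lrrtm2 rose to 0.91, Nrxn3 to 0.77 and Lrrtm3 to 0.58. Nlgn1 and Nlgn2 thus no longer differed 1.5-fold, whereas Lrrtm2 and Nrxn3 did, both toward replicate 1. Which genes passed 1.5-fold therefore depended on the scaling.

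Cell type markers moved between the same libraries. Of 10 pyramidal neuron markers 3 were at least 2-fold higher in replicate 2, namely Etv1 (15.4 and 93.6 TPM), Fezf2 (20.0 and 44.4 TPM) and Pcp4 (2134 and 4468 TPM). Of 8 interneuron markers tested, 4 were at least 2-fold higher in replicate 1, with Sst at 2506 and 844 TPM, Npy at 529 and 202 TPM, Gad2 at 31.7 and 11.05 TPM and Vip at 153 and 0.03 TPM, and Lamp5 was higher in replicate 2. Of 5 microglial markers tested 4 were higher in replicate 1, and of 3 precursor markers 2 were. None of the 6 astrocyte, 7 oligodendrocyte and 4 endothelial markers tested passed 2-fold, and their summed levels were 424 and 471, 500.2 and 635, and 114 and 103 TPM. The part of these differences in the neuroligin, Nrxn3 and Lrrtm2 ratios was not tested.

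**Figure D4:**
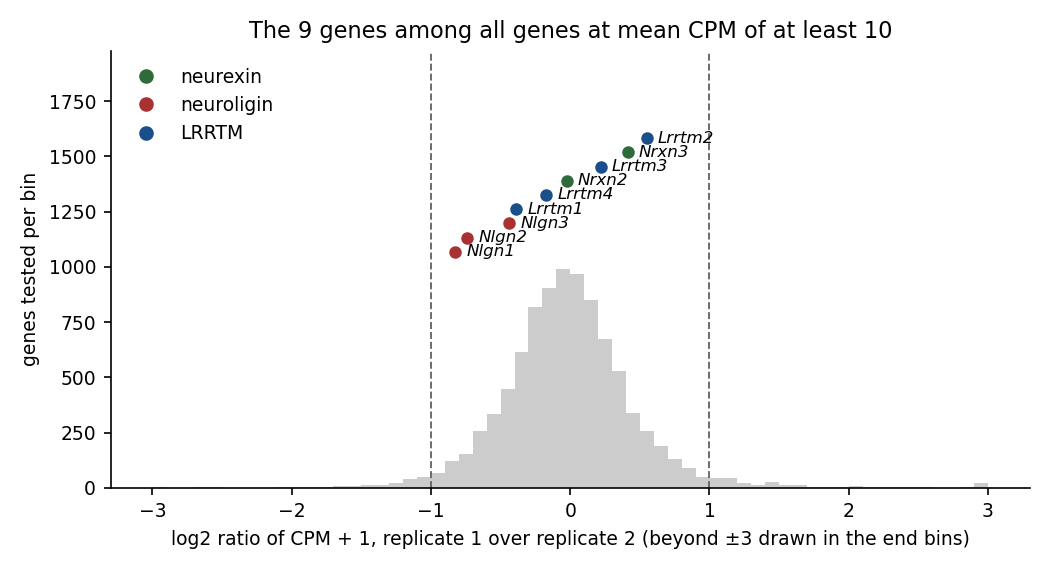
Histogram of log2 ratios (CPM + 1, replicate 1 over replicate 2) of the 9190 genes tested, with the 9 genes placed on the same horizontal axis above it, stacked by rank only, and dashed lines at 2-fold. The 9 genes lie between -0.83 (Nlgn1) and 0.55 (Lrrtm2), inside the dashed lines.

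Genes that act with these proteins were taken from 10 lists with 96 genes in all. Of the 96, 83 reached 1 TPM in each library, and the medians were 13.6 and 14.3 TPM. Of 72 at the CPM minimum 10 differed at least 2-fold (13.9%, against 4.46% of all genes), 7 higher in replicate 1 and 3 higher in replicate 2. Their median log2 ratio was -0.07, beside -0.03 for all genes tested.

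Cytoplasmic partners of the neurexins were all detected, 10 of 10. The scaffold Lin7b stood at 339 ± 28.7 TPM (SD, n = 2), the adaptor Apba2 at 73.3 ± 17.3 and the cytoskeletal protein Epb41l3 at 54.4 ± 8.12. Epb41l2, at 5.02 and 1.61 TPM, differed at least 2-fold and was the only one of 9 tested to do so. Ligands of alpha neurexins differed widely in level. Of 11, 7 reached 1 TPM in each library, and Nxph4 had no reads in either. Fam19a1, a secreted protein that binds neurexins, stood at 66.2 and 160 TPM, and Fam19a2 at 5.36 and 20.1, both at least 2-fold higher in replicate 2. Igsf21, a ligand of neurexin 2 alpha, stood at 63.5 and 14.7 TPM, at least 2-fold higher in replicate 1, and the neurexophilin Nxph1 at 31.4 and 17.7 TPM did not pass 2-fold.

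Secreted bridges that bind neurexins were led by Cbln2, which binds neurexins that carry the splice site 4 exon, at 71.0 and 133 TPM. C1ql3 stood at 33.6 and 15.5 TPM, at least 2-fold higher in replicate 1. In this list 6 of 10 genes reached 1 TPM in each library. All 7 other ligands did, with the calsyntenins Clstn1 at 158 ± 47.7 TPM and Clstn3 at 30.6 ± 12.8 and the latrophilin Adgrl2 at 48.5 ± 2.89, and none of 6 tested passed 2-fold. Of the 7 ligands of latrophilins all reached 1 TPM, with Flrt2 at 14.6 ± 0.62, Tenm4 at 13.9 ± 4.37 and Flrt3 at 13.8 ± 4.53. The teneurins Tenm1 (15.8 and 6.09 TPM), Tenm2 (4.56 and 2.94 TPM) and Tenm3 (12.8 and 2.90 TPM) were at least 2-fold higher in replicate 1 by CPM.

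None of the 9 partners and inhibitors of the neuroligins tested passed 2-fold. The scaffolds Dlg1 and Dlg2 stood at 39.8 ± 1.35 and 31.8 ± 8.05 TPM. Of the 12 genes 10 reached 1 TPM in each library. The parallel system of receptor phosphatases was led by Ptprd at 120 ± 28.0 TPM, Ptprs at 83.1 ± 2.35 and their ligand Lrfn5 at 35.6 ± 7.17. Of its 19 genes 18 reached 1 TPM in each library and 2 of 14 tested passed 2-fold, Slitrk1 at 12.2 and 5.25 TPM and Il1rapl2 at 1.80 and 12.3 TPM. The list of netrin G genes and their ligands was led by Lrrc4c at 45.4 ± 2.40 TPM. Lrrc4 stood at 13.4 ± 0.13 and Ntng1 at 6.68 ± 0.92, with none of 3 tested past 2-fold.

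Regulators that act on alternative exons of neurexins and neuroligins reached 1 TPM in both libraries for 9 of 10 genes, and none of 9 tested passed 2-fold. Khdrbs3, of the family whose members are known to cause skipping of the splice site 4 exon, stood at 52.5 and 52.4 TPM. Rbfox1 stood at 87.2 ± 7.83 TPM and Rbfox3 at 57.9 ± 11.2. Among the proteases linked to shedding of synaptic proteins all 6 reached 1 TPM in each library, with the cathepsins Ctsb at 254 ± 52.8 TPM and Ctsl at 97.9 ± 8.55 and the metalloprotease Adam10 at 21.1 ± 4.42. None of 4 tested passed 2-fold.

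**Figure D5:**
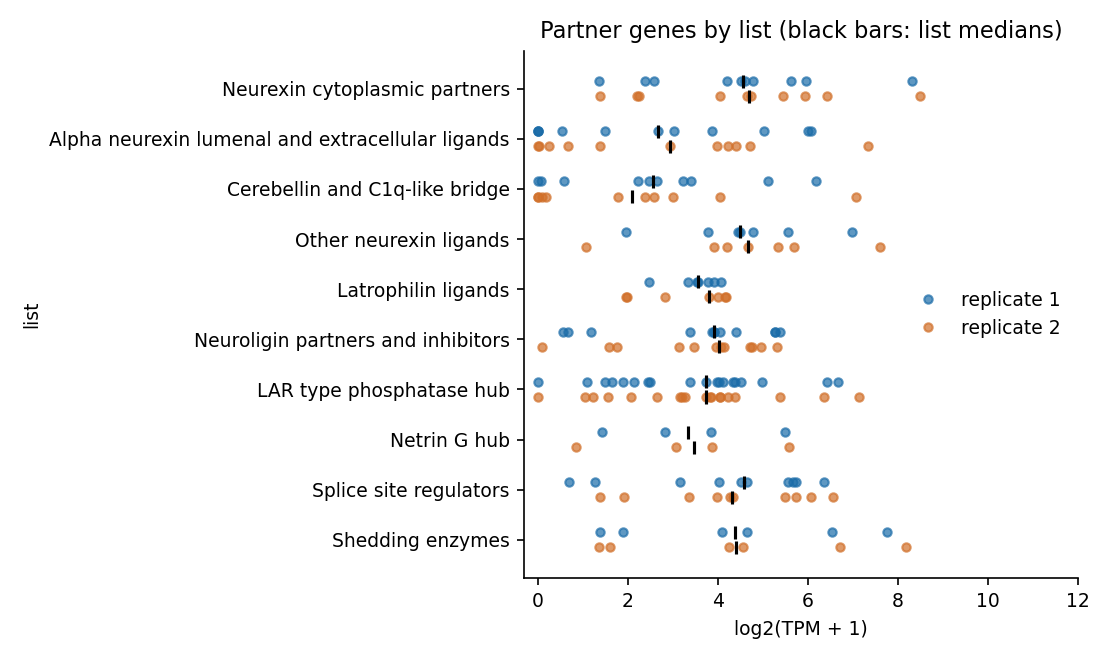
Level of each of the 96 partner genes as log2(TPM + 1) (horizontal axis) by list (rows), in replicate 1 (blue) and replicate 2 (orange), with list medians as black bars. The receptor phosphatase list has a median of 12.2 TPM and 12.3 TPM, and the cerebellin list has the lowest medians, 4.88 and 3.34 TPM.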

How the data were processed

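RNA was measured in 2 libraries of 1 group, grouped by the labels' replicate numbers. The gene tables that the authors deposited, 1 per library, hold an expected count (an estimated, not normalized, number of reads per gene), TPM and FPKM. TPM is scaled over all features of the deposited file, spike-ins included. A transcript table was used for replicate 1, where the deposited percent is the part of a gene's TPM held by 1 transcript. Reads had been quantified from transcriptome alignments on mm10 with GENCODE M4, per the deposited text files. Aligner, quantifier and strand setting were not given in the sources used here.

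GENCODE M21, on the same build (GRCm38), gave names, exons and coordinates, and 42462 of 43346 gene identifiers and all 9 genes matched. The lengths of 58 of 60 transcripts were equal in both annotations. Expected counts were rounded, spike-ins (96) and entries with numeric identifiers (26248) were left out, and TMM scaling of library sizes was done in edgeR 4.0.16 (R 4.3.3). Ratios used a pseudocount of 1 CPM and only genes with a mean CPM of 10 or more, and differences within a library a pseudocount of 1 TPM. No test between groups was possible. Intervals are 95% exact Poisson, binomial or conditional binomial intervals, and cover counting error only. All else used Python 3.11.15 with scipy 1.17.1, pandas 2.3.3, numpy 2.4.6 and matplotlib 3.10.9.

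The genes and lists were chosen with earlier results of these data known. Named were all 9 genes, every gene in the tables that overlaps one of them, and of each partner list the 3 with the highest mean TPM and those at least 2-fold apart. A few items that this rule selects are not reported here. Khdrbs3, Nxph4 and the markers named come from the fixed lists. Alternatives were DESeq2 1.42.0 size factors, total counts, spike-in totals, other pseudocounts, minimums and units, leaving out a library, and, chosen after the values were seen, a limit of 1.5-fold, posterior mean shares and the longest coding transcript.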

Additional observations from a re-analysis of the deposited data

How the results depend on the processing

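No paired analysis was possible because the libraries form 1 group. The count of 0 genes at least 2-fold apart held under each alternative scaling, pseudocount and unit. Of all genes tested under these settings 2.79% to 7.22% differed 2-fold. Lower minimums could not change the count, since all 9 genes already passed the CPM minimum. With them 10.4% (mean CPM of at least 1) and 8.31% (at least 1 read) of all genes differed. At 1.5-fold with TMM scaling the count was 2, against 16.9% of all genes. The median level of the 9 genes, 22.2 ± 2.69 TPM (SD, n = 2), ranged from 20.3 to 24.1 TPM when either library was left out, and was 18.1 in FPKM, another unit. Leaving out either library gave 0.15 to 0.50 for Nrxn3 minus Nrxn2, 0.32 to 0.97 for LRRTMs minus neuroligins, 1.13 to 1.20 for Nlgn1 minus Nlgn2, -0.28 to 0.06 for Nlgn3 minus Nlgn1 and 0.56 to 1.12 for Lrrtm3 minus Lrrtm1. Nlgn1 minus Nlgn2 was 1.24 with a pseudocount of 0.1 TPM. With all reads on the longest coding transcripts, Lrrtm3 minus Lrrtm1 went from 0.84 to -0.032, within its spread of 0.42 and with opposite signs in the libraries. On that scale Nlgn3 minus Nlgn1 was 0.34, Nlgn1 minus Nlgn2 0.78 and Nrxn3 minus Nrxn2 2.71. Shares differed between TPM and reads: noncoding transcripts of Nrxn2 held 92.1% of TPM but 58.1% of reads. By reads the shares were 9.13% for Nrxn3 beta forms, 95.2% for transcripts with the Nrxn3 90-nt exon and 81.2% for those with the Nlgn1 60-nt exon. With protein-coding transcripts alone the beta share was 20.2% and the Nrxn3 exon 95.4%, and by posterior means the Nlgn1 exon was 62.8%. Shares come from 1 library and have no spread, and those of coding Nrxn2 rest on 261 reads.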
